A study of Mus musculus with 4 samples.

Results

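The 9 B cell genes described here are Cd79a, Cd79b, Cd22, Cr2, Fcer2a, Ms4a1, Blk, Pax5 and Jchain. They were taken by name, not by their values, from a table of 21931 genes, and all 9 were present and passed the filter on low counts. RNA was sequenced from whole lung of C57BL6 mice aged 2 months that received no additional treatment. The study asks how the lung transcriptome differs without Dnah9, which encodes a motor protein of motile cilia. One library was labelled wild type, 2 were labelled Dnah9 knockout, here knockout 1 and knockout 2 in the order of the samples, and 1 had the genotype Hez, an abbreviation kept as written. The labels name neither the deleted part of Dnah9, nor a litter, nor a batch, nor whether the 2 knockout libraries came from separate mice. The spread between these 2 libraries, which enters the p-values, may therefore be technical.

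B cells recognise antigen through a membrane immunoglobulin that signals through the partner proteins encoded by Cd79a and Cd79b. Kinases such as Blk and Syk act next to that receptor, while the coreceptor encoded by Cr2 lowers the threshold for activation and Cd22 raises it. Pax5 holds cells to the B lineage until they become plasma cells, which switch Pax5 off and express Jchain, the joining chain of polymeric IgA and IgM. The lung holds circulating and resident B cells, few lymphoid follicles when unchallenged, and plasma cells that supply IgA to the airway.

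Promoter sequences were matched for 6 of the 9 genes in RefSeq (build GRCm38.p6), and 4 stretches are shown because these genes stand for the 3 patterns found among the 4 libraries: Cd79a was high in knockout 1 alone, Cr2 and Fcer2a were high in both knockout libraries, and Jchain was low in knockout 1. Each runs 5′ to 3′ on the gene's strand and ends at the listed start or, for Cd79a, before the first base annotated as an exon in GENCODE. Capitals mark CAGGTG or its reverse CACCTG, an E-box that E2A proteins (Tcf3) can bind, and TTCCTC, the reverse of the PU.1 core GAGGAA. Of the 3 Fcer2a windows, only that with an E-box is shown. The window of Pax5, which was also high in knockout 1, held no such letters and is not shown.
Cd79a promoter (chr7:24897247-24897380, plus strand): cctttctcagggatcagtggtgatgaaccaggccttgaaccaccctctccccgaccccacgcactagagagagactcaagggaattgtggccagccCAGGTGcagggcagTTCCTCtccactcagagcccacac
Cr2 promoter (chr1:195176720-195176969, minus strand): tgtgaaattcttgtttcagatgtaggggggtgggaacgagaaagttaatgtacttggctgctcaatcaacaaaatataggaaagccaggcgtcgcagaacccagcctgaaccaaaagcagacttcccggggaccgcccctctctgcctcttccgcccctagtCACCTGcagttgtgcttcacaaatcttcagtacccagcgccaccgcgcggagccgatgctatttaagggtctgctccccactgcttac
Fcer2a promoter of a start inside the gene (chr8:3690862-3691111, minus strand): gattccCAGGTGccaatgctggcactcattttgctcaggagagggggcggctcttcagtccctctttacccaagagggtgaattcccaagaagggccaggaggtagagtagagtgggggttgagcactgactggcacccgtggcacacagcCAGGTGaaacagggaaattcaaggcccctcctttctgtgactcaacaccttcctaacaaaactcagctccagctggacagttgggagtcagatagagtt
Jchain promoter (chr5:88527898-88528147, minus strand): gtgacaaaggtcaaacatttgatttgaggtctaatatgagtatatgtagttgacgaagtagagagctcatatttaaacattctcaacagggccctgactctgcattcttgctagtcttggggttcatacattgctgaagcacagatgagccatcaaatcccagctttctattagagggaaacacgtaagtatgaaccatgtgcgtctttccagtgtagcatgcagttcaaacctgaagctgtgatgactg

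Both strands of the 250 bases before each listed start were searched, which gave 8 windows for the 6 genes, 3 of them for Fcer2a. CAGGTG lay in 4 of the 8 windows, those of Cd79a, Cr2 and Cd22 and 1 of Fcer2a, and in 17.2% of all 32851 promoters. The EBF motif (early B cell factor) searched for was TCCC and GGGA with 2 bases of any kind between them. It was found in the window of Cd22 alone among the 8 and in 0.779% of all promoters. The first base of the Cd22 window was annotated as an exon of Cd22 in GENCODE, so the motifs found there lie inside the annotated gene. GAGGAA was found before Cd79a alone among the 6 genes and in 23.3% of all promoters. The octamer ATGCAAAT, bound by Oct factors, was found before 0 of the 6 genes and in 1.60% of all promoters. The 2 other starts listed for Fcer2a, and the windows of Pax5 and Jchain, held none of the 4 motifs, which says only that these letters are absent from these windows.

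On GRCm39, the build of the deposited table, Cd79a (ENSMUSG00000003379) lies on chromosome 7 from 24596806 to 24601622 and Cd22 (ENSMUSG00000030577) on chromosome 7 from 30564827 to 30579767. Cd79b (ENSMUSG00000040592) lies on chromosome 11 from 106202167 to 106205588, Ms4a1 (ENSMUSG00000024673) on chromosome 19 from 11227039 to 11243605, and Blk (ENSMUSG00000014453) on chromosome 14 from 63610285 to 63654486. Pax5 (ENSMUSG00000014030) lies on chromosome 4 from 44524757 to 44710487 and Fcer2a (ENSMUSG00000005540) on chromosome 8 from 3731737 to 3744175. Cr2 (ENSMUSG00000026616) lies on chromosome 1 from 194819119 to 194859024 and Jchain (ENSMUSG00000067149) on chromosome 5 from 88667668 to 88675750. Counts are per gene, so reads of exons, introns and splice forms were not separated.

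The libraries held 15860478 to 16553480 reads. The targeted gene Dnah9 had 917 reads in wild type, 420 in Hez, and 240 and 254 in knockouts 1 and 2. Knockout 1 stood apart for several lists of leukocyte genes: it was the highest library for 7 of 7 pan-leukocyte, 6 of 6 neutrophil, 7 of 8 natural killer, 10 of 13 tested T cell and 5 of 8 monocyte and macrophage genes, against 24.6% of all 15055 genes tested. It was the highest for 2 of 8 MHC class II and dendritic cell genes and 1 of 5 plasmacytoid dendritic cell genes. Results below are therefore given library by library.

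Levels per gene length, in FPKM (fragments or reads per kilobase of gene, scaled to the library total), placed the 2 signalling partners of the receptor first, with ranges over the 4 libraries of 18.4 to 29.9 for Cd79a and 17.8 to 26.1 for Cd79b. Next came Fcer2a (5.26 to 8.13), Cd22 (4.48 to 6.83), Blk (3.38 to 6.24), Ms4a1 (3.30 to 5.66), Jchain (1.72 to 3.996) and Pax5 (1.91 to 2.92). The lowest was Cr2, at 0.771 to 1.52 FPKM. In this order, neighbouring ranges overlapped except between Cd79b and Fcer2a and between Pax5 and Cr2. The B cell label held for these libraries in that Cd79a, Cd79b, Ms4a1 and Pax5, which define B cells, had 273 to 714 reads in each.

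Knockout 1 was the highest of the 4 libraries for 7 of the 9 genes and the lowest for Jchain. For 6 of them, Cd79a, Cd79b, Cd22, Ms4a1, Blk and Pax5, knockout 1 lay above the other 3 libraries while the counting intervals of the ratio of knockout 2 to wild type and to Hez included 1. Over all genes tested those intervals excluded 1 for 34.9% and 33.1%. Fcer2a and Cr2 instead lay higher in both knockout libraries. These groupings were made from the values and carry no test. In whole lung, a change in the number of cells of a type and a change in RNA per cell cannot be told apart, for higher and lower values alike.

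**Figure D1:**
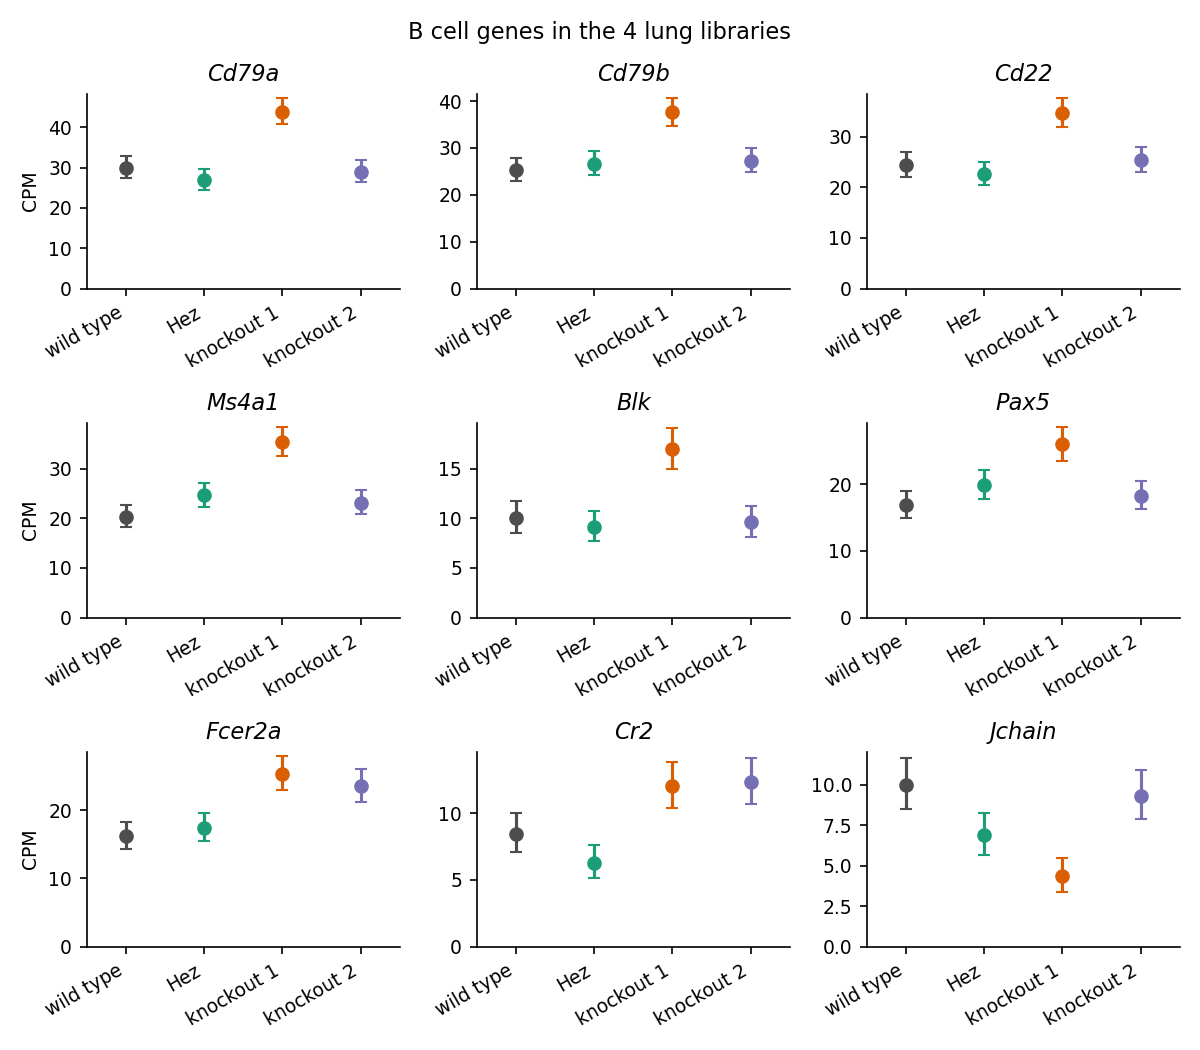
Read counts relative to the library total (CPM, vertical axis from 0) of the 9 genes in each library (horizontal axis), with points for single libraries and bars for exact 95% Poisson intervals that cover counting error only. Knockout 1 (43.9 CPM for Cd79a) stands above the other libraries in the first 6 panels, both knockout libraries stand above wild type and Hez for Fcer2a and Cr2, and knockout 1 (4.36 CPM) is lowest for Jchain.

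The receptor partners came first. Cd79a had 486 reads in wild type, 445 in Hez, 714 in knockout 1 and 461 in knockout 2, or 29.99, 26.9, 43.9 and 29.0 CPM, the read count relative to the library total after TMM scaling. Only knockout 1 was high, at 1.46 times wild type (95% exact interval 1.30 to 1.65, for counting error between these 2 libraries), while knockout 2 stood at 0.967 times wild type (0.850 to 1.10). Cd79b had 411 reads in wild type, 441 in Hez, 612 in knockout 1 and 434 in knockout 2, or 25.4, 26.7, 37.6 and 27.3 CPM. Knockout 1 was again the high library, at 1.48 times wild type (1.31 to 1.69), and knockout 2, at 1.08 times (0.939 to 1.24), lay just above Hez.

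Cd22, a sialic acid binding inhibitor of receptor signals, had 24.4 CPM in wild type, 22.6 in Hez, 34.7 in knockout 1 and 25.4 in knockout 2. Knockout 1 was 1.42 times wild type (1.25 to 1.62) and knockout 2 1.04 times (0.903 to 1.20). Ms4a1, which encodes the B cell surface protein CD20, had 329 reads in wild type, 407 in Hez, 574 in knockout 1 and 368 in knockout 2, or 20.3, 24.6, 35.3 and 23.1 CPM. The Hez library lay between the 2 knockout libraries, so the groups overlapped. Knockout 1 was 1.74 times wild type (1.51 to 2.00) for Ms4a1.

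Blk, a Src family kinase of the B lineage, had 163 reads in wild type, 151 in Hez, 276 in knockout 1 and 153 in knockout 2, or 10.1, 9.13, 17.0 and 9.62 CPM. Its ratio of knockout 1 to knockout 2 was the highest of the 9 genes, at 1.76 (1.44 to 2.16), and knockout 2 stood at 0.957 times wild type (0.762 to 1.20). Pax5 had 16.9 CPM in wild type, 19.9 in Hez, 26.0 in knockout 1 and 18.3 in knockout 2. Knockout 1 was 1.54 times wild type (1.32 to 1.80) for Pax5, and Hez lay above knockout 2.

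Fcer2a, which encodes the low-affinity IgE receptor CD23 of mature follicular B cells, had 262 reads in wild type, 288 in Hez, 412 in knockout 1 and 374 in knockout 2, or 16.2, 17.4, 25.3 and 23.5 CPM. Both knockout libraries lay above both others, and they differed from each other by less than counting error (ratio 1.08, interval 0.933 to 1.24). Against wild type the ratios were 1.57 (1.34 to 1.84) in knockout 1 and 1.46 (1.24 to 1.71) in knockout 2. Cr2, which encodes the complement receptors CD21 and CD35 of B cells and follicular dendritic cells, had 137 reads in wild type, 104 in Hez, 196 in knockout 1 and 196 in knockout 2, or 8.45, 6.29, 12.1 and 12.3 CPM. Here too the groups did not overlap, with ratios to wild type of 1.43 (1.14 to 1.79) and 1.46 (1.17 to 1.83), and Hez was the lowest library.

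Jchain was lowest in knockout 1. It had 162 reads in wild type, 114 in Hez, 71 in knockout 1 and 148 in knockout 2, or 9.997, 6.90, 4.36 and 9.31 CPM. Knockout 1 stood at 0.437 times wild type (0.326 to 0.581) and knockout 2 at 0.931 times (0.740 to 1.17), with Hez between the 2 knockout libraries. The library with the highest Ms4a1, Cd79a and Blk thus had the lowest Jchain.

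**Figure D2:**
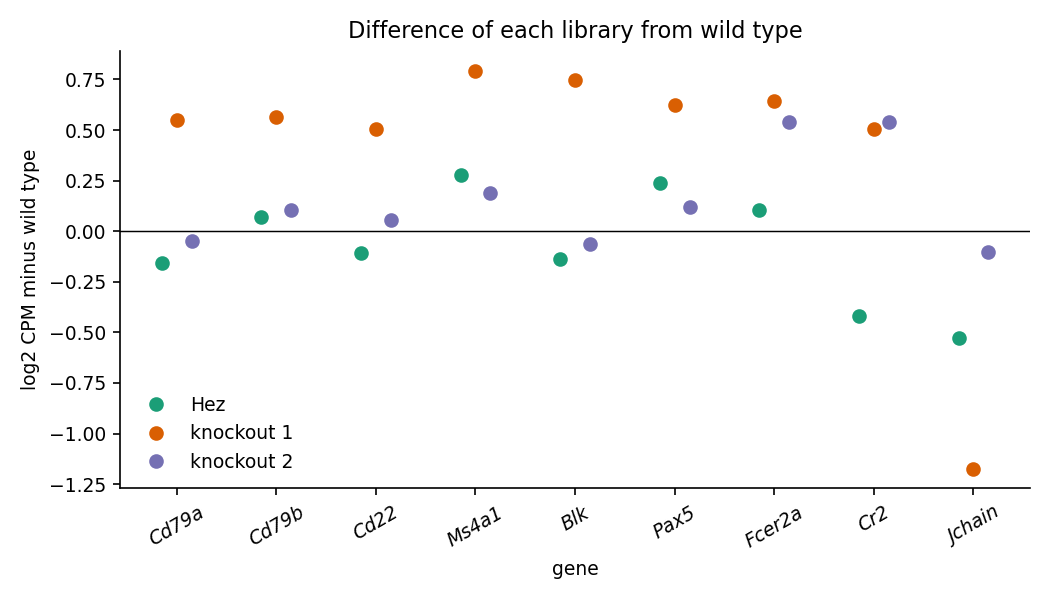
Difference in log2 CPM between wild type and each other library (vertical axis) for the 9 genes (horizontal axis), 1 point per library. Knockout 1 lies between 0.50 and 0.79 for 8 genes and at -1.17 for Jchain, while knockout 2 exceeds 0.50 only for Fcer2a (0.54) and Cr2 (0.54).

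Of the 9 genes, 0 passed an adjusted p of 0.05 in edgeR for knockout against wild type, where 0.0531% of all genes did so (8 of 15055). Log2 folds were above 0 in 8 of 9, against 51.1% of all genes tested, with a median of 0.40 beside 0.0045 over all genes. At an unadjusted p below 0.05 there was 1 of the 9, Fcer2a, against 5.18% of all genes (1.81% on the higher side). Fcer2a had a log2 fold of 0.60 (SE 0.175, edgeR adjusted p = 0.632), Cr2 of 0.53 (SE 0.24) and Ms4a1 of 0.53 (SE 0.247). Blk stood at 0.40 (SE 0.337), Pax5 at 0.40 (SE 0.233), Cd79b at 0.36 (SE 0.206), Cd22 at 0.30 (SE 0.207), Cd79a at 0.28 (SE 0.231) and Jchain at -0.55 (SE 0.406). Adjusted p-values of these 9 ran from 0.632 to 0.996 in edgeR. DESeq2 also called 0, where it called 0.179% of the 8925 genes to which it gave an adjusted p. Limma-voom called 0 too, against 0.0598% of all genes. At an unadjusted p below 0.05, DESeq2 had 0 and limma-voom 1 of the 9. DESeq2 gave no adjusted p for 3 of the 9, Cr2, Blk and Jchain. The wild-type group is 1 library, so its spread is assumed to be like that of the knockout pair.

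Against Hez, edgeR called 0 of the 9 genes, where it called 0.00664% of all genes, and log2 folds were above 0 in 8 of 9 (52.5% of all genes) with a median of 0.41. At an unadjusted p below 0.05 there were 2, Cr2 and Fcer2a, against 4.61% of all genes (2.50% on the higher side). DESeq2 gave 1 and limma-voom 2 at that level, with 0 past the adjusted threshold in either, where they called 0.0465% and 0.00664% of all genes. Cr2 had a log2 fold of 0.95 (SE 0.248, edgeR adjusted p = 0.741) and Fcer2a of 0.49 (SE 0.173, adjusted p = 0.97). Blk stood at 0.54 (SE 0.34), Cd79a at 0.44 (SE 0.234), Cd22 at 0.41 (SE 0.208), Cd79b at 0.28 (SE 0.204), Ms4a1 at 0.25 (SE 0.242), Pax5 at 0.15 (SE 0.229) and Jchain at -0.0139 (SE 0.421). This comparison uses the same knockout libraries as the one with wild type, so the 2 are not independent.

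With wild type and Hez treated as 1 group of 2 libraries, edgeR again called 0 of the 9, where it called 0.0136% of all genes. The spread in this fit also holds the difference between wild type and Hez, which are separate genotypes. At an unadjusted p below 0.05 there were 2 of 9, against 5.05% of all genes (2.30% on the higher side): Fcer2a at 0.54 (SE 0.127, adjusted p = 0.632) and Cr2 at 0.72 (SE 0.205, adjusted p = 0.713). DESeq2 and limma-voom also gave 2 at an unadjusted p below 0.05 and 0 past the adjusted threshold. Past that threshold DESeq2 called 0.421% of the 7846 genes to which it gave an adjusted p, and limma-voom 0.00681% of all genes. DESeq2 gave no adjusted p for 5 of the 9, Fcer2a and Cr2 among them. Log2 folds were above 0 in 8 of 9 (49.1% of all genes), with a median of 0.35. The median was 0.0667 without knockout 1 and 0.59 without knockout 2, and without knockout 2 there were 9 genes at an unadjusted p below 0.05 (5.97% of all genes in that fit) and 0 past the adjusted threshold (0.16% of all genes). Each of these 2 fits holds 1 knockout library, so the spread among knockout libraries does not enter it. Knockout 1 had already been seen to stand apart for these genes before it was kept alone. The counts by p-value without knockout 2 therefore cannot test the genotype, and nothing is read from them. Without knockout 1, Pax5 changed from 0.27 to -0.0083 and Jchain from -0.31 to 0.14.

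Both knockout libraries lay above both other libraries for 4 of the 9 genes, Cr2, Fcer2a, Cd22 and Cd79b, against 17.5% of all genes tested. Without knockout 2 the count was 8. For Cd22 and Cd79b the margin of knockout 2 was within counting error of wild type. Whatever the value of knockout 2, knockout 1 lay above wild type and Hez for 8 of 9 genes (33.6% of all genes). Knockout 2 lay above wild type and Hez for 4 of 9 (34.9% of all genes), the same 4 genes. Knockout 2 lay above wild type for 6 of 9 (50.1% of all genes). Between the knockout libraries, the interval of the ratio excluded 1 for 7 of the 9 genes, 6 higher in knockout 1 and Jchain lower, against 33.4% of all genes tested. These shares cover genes of all read depths, and the intervals narrow with depth.

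Hez and wild type are 1 library each and were compared without a test. Hez lay above wild type for 4 of 9 genes, against 49.5% of all genes, and below it for 5 (50.4% of all genes). The counting interval of the ratio excluded 1 for 4 of 9 genes, against 31.7% of all genes: Ms4a1 at 1.21 times wild type (1.05 to 1.41) and Pax5 at 1.18 times (1.003 to 1.39) were higher, and Cr2 at 0.744 times (0.571 to 0.967) and Jchain at 0.690 times (0.538 to 0.882) were lower. The remaining 5 genes lay between 0.898 and 1.08 times wild type. This difference has no replicate check.

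Both knockout libraries lay above wild type and Hez for all 7 pan-leukocyte genes too. The summed level of the 7 pan-leukocyte genes, among them Ptprc (CD45), was 603 CPM in wild type, 550 in Hez, 757 in knockout 1 and 646 in knockout 2. Ptprc alone had 180, 170, 231.5 and 192 CPM in that order, and its knockout fold against wild type was 0.24 (SE 0.128, edgeR adjusted p = 0.996). Set against the reads of these 7 genes in the same library, the 8 B cell genes other than Jchain had 25.1 reads per 100 in wild type, 27.9 in Hez, 30.6 in knockout 1 and 26.1 in knockout 2. Knockout 1 was thus 1.22 times wild type on this scale, and 1.53 times in CPM. The part of other leukocytes in the difference was not tested.

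Relative to the pan-leukocyte reads, both knockout libraries lay above both other libraries for 2 of the 9 genes, Cr2 and Fcer2a. The same held for 1.42% of all genes tested, but that share is set by the scaling, since the divisor is larger in both knockout libraries and lowers every gene there, and nothing is read from it. Fcer2a had 2.68 reads per 100 pan-leukocyte reads in wild type, 3.17 in Hez, 3.35 in knockout 1 and 3.65 in knockout 2. Cr2 had 1.40, 1.14, 1.59 and 1.91 in that order. Knockout 2 was the highest library for both genes on this scale, and knockout 1 for 5 other members (Cd79a, Cd79b, Cd22, Ms4a1 and Blk). Over all genes tested knockout 1 was the highest for 2.70%, a share set in the same way by its divisor, the largest of the 4. Jchain had 1.66 in wild type, 1.25 in Hez, 0.577 in knockout 1 and 1.44 in knockout 2.

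**Figure D3:**
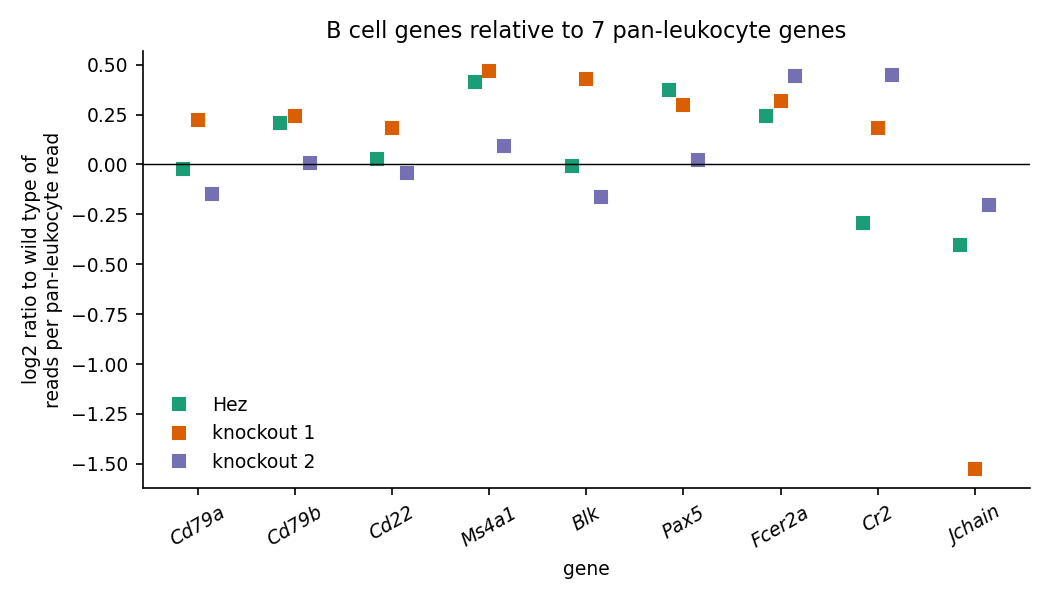
Log2 ratio to wild type of reads per read of 7 pan-leukocyte genes (vertical axis) for the 9 genes (horizontal axis), 1 square per library. Fcer2a and Cr2 are the genes with both knockout libraries above wild type and Hez, at 0.32 and 0.44 for Fcer2a, and Jchain in knockout 1 lies at -1.52.

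Other B cell genes were counted from lists of related function, and 0 of their members passed the threshold in any of the 3 edgeR comparisons. Over all genes tested, 0.0531% passed against wild type, 0.00664% against Hez and 0.0136% against both references together. Of 11 other B cell surface genes, 8 had a fold above 0 against wild type (51.1% of all genes tested), with a median of 0.19. The smallest p in this list belonged to Cd24a, also expressed in epithelium (-0.28, SE 0.0853, edgeR adjusted p = 0.671, and 0.11, SE 0.0867, against Hez), and Fcgr2b, the inhibitory Fc receptor (0.19, SE 0.137).

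Of 19 receptor signalling genes, 16 had a fold above 0 against wild type (51.1% of all genes tested), with a median of 0.23. Rasgrp3, a Ras activator, stood at 0.44 (SE 0.101, edgeR adjusted p = 0.445), with Hez also above wild type by 0.33. Many genes of this list are also expressed in other leukocytes.

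Of 12 B cell transcription factor genes, 9 had a fold above 0 against wild type (51.1% of all genes tested), with a median of 0.22. The smallest p belonged to Mef2c (0.28, SE 0.112) and Tcf3 (0.26, SE 0.104), both with edgeR adjusted p = 0.896. They had 805 and 937 reads in wild type, and which cells these came from was not tested. Both knockout libraries lay below wild type and Hez for 2 of the 12, Ebf1 and Foxo1, against 16.3% of all genes tested. Ebf1, the gene of early B cell factor, stood at -0.07 (SE 0.156) against wild type and -0.26 (SE 0.154) against Hez. Of 8 tested plasma cell genes, 6 had a fold above 0 against wild type (51.1% of all genes tested), with a median of 0.05. Their reads in wild type ran from 24 for Mzb1 to 2923 for Txndc5, 3880 for Sdc1 and 4272 for Xbp1. Which cells these reads came from was not tested. Prdm1, the regulator of plasma cell differentiation, stood at -0.44 (SE 0.159, edgeR adjusted p = 0.83) and Xbp1, which drives the secretory apparatus, at 0.18 (SE 0.104). Mzb1, an endoplasmic reticulum protein of plasma and marginal zone B cells, had 24 reads in wild type, 16 in Hez, 25 in knockout 1 and 17 in knockout 2, so it did not share the low value of Jchain in knockout 1. Tnfrsf17, the plasma cell receptor BCMA, had 2 to 6 reads and was not tested. Immunoglobulin genes were not analysed here.

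Among 12 tested genes of B cell survival and follicle signals, 9 had a fold above 0 against wild type (51.1% of all genes), with a median of 0.16. Ccr7, a homing receptor of T cells, dendritic cells and B cells, had 12.7 CPM in wild type, 12.3 in Hez, 19.1 in knockout 1 and 18.1 in knockout 2, with a fold of 0.55 (SE 0.194, edgeR adjusted p = 0.812). Cxcl13, the chemokine that draws B cells to follicles, had 111 reads in wild type, 32 in Hez, 53 in knockout 1 and 37 in knockout 2. Wild type was its high library, and its fold of -1.29 (SE 0.381, edgeR adjusted p = 0.632) did not pass. Against Hez, Cxcl13 stood at 0.53 (SE 0.439). The receptor of Cxcl13, Cxcr5, against wild type stood at 0.12 (SE 0.267), and Tnfrsf13c, the receptor for the survival factor BAFF, at 0.20 (SE 0.364).

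Glycam1 and Madcam1, genes of the vessels of lymphoid organs, had 0 reads in 4 and in 3 libraries, with 1 Madcam1 read in knockout 2. A count of 0 allows up to 3 reads. Among 4 tested germinal centre genes, 1 had a fold above 0 against wild type (51.1% of all genes), S1pr2 (0.21, SE 0.106). Bcl6 stood at -0.05 (SE 0.107). Against Hez all 4 had a fold above 0 (52.5% of all genes), with Bcl6 at 0.39 (SE 0.11, edgeR adjusted p = 0.815) and S1pr2 at 0.13 (SE 0.106). Against both references together all 4 did as well (49.1% of all genes).

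Both knockout libraries lay above both others for 11 of 19 receptor signalling, 7 of 12 survival and follicle, 4 of 12 transcription factor, 2 of 8 plasma cell, 1 of 4 germinal centre and 2 of 11 other surface genes, against the 17.5% of all genes tested. The same count was 8 of 8 for monocytes and macrophages, 7 of 7 for pan-leukocyte genes, 5 of 8 for MHC class II and dendritic cells and 3 of 13 for T cells. It was 0 of 8 for natural killer cells, 0 of 6 for neutrophils and 0 of 5 for plasmacytoid dendritic cells.

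**Figure D4:**
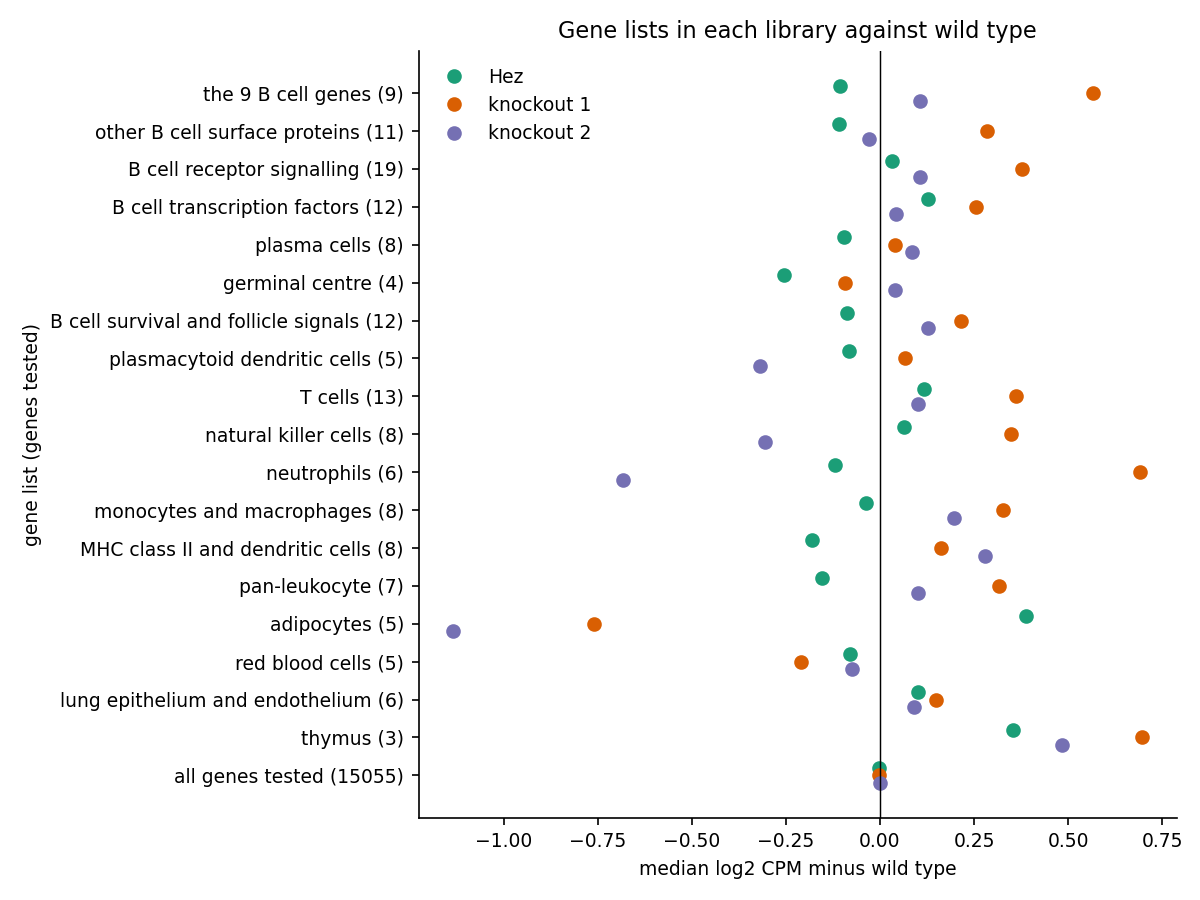
Median difference in log2 CPM from wild type (horizontal axis) for each gene list (vertical axis, with the number of genes tested), 1 point per library. The 9 B cell genes lie at 0.57 in knockout 1, 0.11 in knockout 2 and -0.11 in Hez, and neutrophil genes at 0.69 in knockout 1 and -0.68 in knockout 2.

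Lists of other cells gave the following medians against wild type. T cell genes lay at 0.36 in knockout 1, 0.10 in knockout 2 and 0.12 in Hez. All 13 tested members had a knockout fold above 0 against wild type (51.1% of all genes), and 9 of 13 against Hez (52.5%). The smallest p belonged to Cd3g (0.56, SE 0.304) and Cd6 (0.67, SE 0.413). The summed level of the T cell genes was 88.2 CPM in wild type, 95.1 in Hez, 119 in knockout 1 and 90.3 in knockout 2. Natural killer genes, with Gzma at a knockout fold of 0.24 and Klre1 at -0.12, lay at 0.35 in knockout 1 and -0.31 in knockout 2, and their median fold was 0.08 against wild type and -0.10 against Hez. Neutrophil genes, with Csf3r at 0.42 and Retnlg at 0.21, summed to 272, 258, 447 and 146 CPM in the same order, so knockout 2 was their lowest library. For genes of plasmacytoid dendritic cells, with Tcf4 at 0.21 and Cox6a2 at -0.36, knockout 1 lay at 0.07 and knockout 2 at -0.32, the value of Cox6a2. In wild type Tcf4 had 3250 reads, Cox6a2 246 and Siglech 66, and which cells these reads came from was not tested. Pan-leukocyte genes lay at 0.32 in knockout 1 and 0.10 in knockout 2, with Cd53 at 0.31 and Rac2 at 0.23.

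Monocyte and macrophage genes lay at 0.33 in knockout 1 and 0.20 in knockout 2, with the smallest p for Chil3 (0.76, edgeR adjusted p = 0.445) and Adgre1 (0.39). For MHC class II and dendritic cell genes, which B cells partly share, the medians were 0.16 in knockout 1 and 0.28 in knockout 2, with Cd74 at 0.27 and H2-Aa at 0.25. Adipocyte genes lay at -0.76 in knockout 1, -1.14 in knockout 2 and 0.39 in Hez, and Cfd, the fat cell gene adipsin, fell by 1.09 (SE 0.126, edgeR adjusted p = 0.0482), while Car3 stood at -0.94 (SE 0.147). Lists of red blood cells and of lung epithelium and endothelium had medians between -0.21 and 0.15 in every library, with Hbb-bs at -0.20, Hba-a1 at -0.15, Sftpc at 0.18 and Scgb1a1 at -0.32 in the knockout fold. Of 3 tested genes of thymic lymphocytes, 2 had folds above 0 (51.1% of all genes), Themis (0.62, SE 0.405) and Dntt (1.17, SE 0.811). Ptcra had 0 reads in all 4 libraries. The part of these lists in the B cell values was not tested.

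Among 12076 other genes with at least 5 CPM, the 6 closest to the mean profile of the 9 genes were Sftpd, Fxyd5, Mtmr11, Ptprc, Nsmce1 and Insyn1. That mean includes Jchain, which was lowest in knockout 1, so it blends the patterns described above. Likeness was the root mean square difference of centred log2 CPM over the 4 libraries, and it ran from 0.0138 for Sftpd to 0.0259 for Insyn1. Sftpd, a surfactant collectin of alveolar type 2 cells, had 744 CPM in wild type, 696 in Hez, 999 in knockout 1 and 812 in knockout 2. With 4 libraries, many genes can come this close.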

How the data were processed

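Per the labels' protocols, lung RNA was prepared with TruSeq reagents for an Illumina HiSeq instrument. The deposited table holds raw read counts per gene and FPKM values made by the authors, which equalled count per total and Length column for all 66024 values above 0 (relative tolerance 1e-06). Per the submitters' processing notes, GRCm39 was the genome build. The sources used here name no aligner, counter, annotation release or strand setting. Without strand, reads of overlapping genes cannot be told apart.

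In edgeR 4.0.16 (R 4.3.3), genes were kept by filterByExpr with a minimum count of 10, and TMM factors of 0.993 to 1.01 scaled the library totals. The quasi-likelihood test, two-sided, used 3 groups (1 residual degree of freedom) or 2 groups (2 residual degrees of freedom), with Benjamini-Hochberg adjustment over all tested genes. Log2 CPM differences of single libraries used a prior count of 2. Per-library intervals are exact at 95% and cover counting error only. Every pair of libraries differed by more than counting error, with a chi-square per gene of 8.07 to 11.9. Groups came from genotype labels, and replicate numbers pair nothing.

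The 9 genes, the lists and the motifs were chosen with earlier results of these data known. All 9 were named, with Mzb1, Tnfrsf13c, Cxcr5, Cxcl13, Ptprc and the 2 genes of smallest p per list. Ebf1 and Foxo1 were named in addition, for lying below both references in both knockout libraries. Alternatives were DESeq2 1.42.0 size factors and Wald test, library totals, other filters, limma 3.58.1 (voom, and log2 FPKM with pseudocounts of 0.5, 0.1 and 1) and each library left out. Some genes that this rule names are not reported here.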

Additional observations from a re-analysis of the deposited data

How the results depend on the processing

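For the 3 knockout comparisons, edgeR, DESeq2, limma-voom and limma on log2 FPKM called 0 of the 9 genes under every scaling, filter and left-out library that could be fitted, with no DESeq2 adjusted p for 3 of them against wild type and 5 against both references. Leaving out a knockout library in the comparison with wild type or Hez alone leaves no residual degrees of freedom and was not run. With both references together, the median fold ran from 0.0667 (without knockout 1) to 0.59 (without knockout 2). With 1 library left out, Pax5 ran from -0.0083 (without knockout 1, reversed) to 0.50 (without knockout 2) and Jchain from -0.95 (without knockout 2) to 0.14 (without knockout 1, reversed). The number of genes with the knockout libraries above both references ran from 4 without knockout 1 to 8 without knockout 2, an alternative chosen after seeing the data. Fewer libraries enter these settings, and the cause was not tested otherwise. Over all genes, the 8 calls against wild type were 16 with DESeq2, 5 at a mean of 1 CPM, 4 with no filter and 0 on FPKM. The 1 call against Hez was 7 with DESeq2 and 0 on FPKM. The 2 calls against both were 33 with DESeq2, 1 with limma-voom, at a mean of 1 CPM, without wild type and on FPKM with pseudocounts of 0.5 and 0.1, and 0 with a pseudocount of 1 or no FPKM filter. Without knockout 1, knockout 2 and Hez they were 107, 24 and 8. No paired analysis was possible because the labels give no numbers that link libraries across groups. With 71 to 714 reads per gene and library, counting error alone spans the Hez to wild type ratio of 5 genes.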

Other observations

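Siglech, a receptor of plasmacytoid dendritic cells chosen here after its values were seen, had 134 reads in Hez against 66 in wild type and 77 and 63 in knockouts 1 and 2. Irf4, a factor of activated B cells and plasma cells also chosen after its values were seen, had 244 reads in knockout 2 against 181 to 203 in the other 3 libraries. Rag2, a recombinase gene of lymphocyte precursors chosen in the same way, had 8 reads in wild type, 2 in knockout 1 and 0 in Hez and knockout 2.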
